A study of Mus musculus with 2 samples.

Results

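Splicing factor and hnRNP genes were compared between primary hepatocytes infected with an adenovirus that carries KLF14 (Ad-KLF14) and hepatocytes that received the control virus Ad-GFP. The genes were taken by symbol from the mRNA-typed rows of both expression tables. They are the numbered Srsf, Sfrs, Sf3a, Sf3b, Prpf and U2af genes and every symbol that starts with Hnrnp or Snrp. The rule found 69 genes among 35129 rows, of which 23285 are mRNA-typed. Another 3 rows match the symbols but are typed as ncRNA and were not members. Both groups are hepatocytes of C57BL/6 mice, and both received a virus. The design text calls the control an empty vector, while its title and tag say GFP. Each group holds 1 table, treated as 1 library, so there is no replicate error and no test between the groups, and every difference below describes these 2 libraries. Whether a table pools several cultures or animals is not clear from a design text that speaks of triplicates.

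An intron is removed by the spliceosome, which assembles on each pre-mRNA from small nuclear ribonucleoproteins (snRNPs), particles of a short RNA and its proteins. U1 binds the start of the intron, U2 binds the branch point with help of U2AF, SF3A and SF3B, and the pre-assembled U4/U6 and U5 particle (the tri-snRNP) then joins to form the catalytic machine. SR proteins, which carry a domain rich in arginine and serine, and hnRNP proteins bind the transcript itself and promote or repress the use of nearby splice sites. Many of them also control their own mRNAs through exons that trigger decay.

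Levels are given in FPKM, fragments scaled to the length of the gene model and the depth of the library. Levels of different genes can be set side by side as far as these lengths are right. A difference is the log2(FPKM + 1) value with Ad-KLF14 less that with Ad-GFP, and a fold is the ratio of the FPKM values without the added 1. A gene is counted as apart from 1.5-fold or 2-fold on, measured on log2(FPKM + 1). The 95% counting interval of a ratio comes from the reads recovered from the FPKM values and covers counting error only. These reads can be lower limits, and an interval may then be too wide and hold 1 for that reason. Intervals that exclude 1 are common in these libraries. They were found in 74.1% of the mRNA-typed genes with reads in both libraries, and in 50 of the 68 splicing genes counted below, so such an interval alone does not set a gene apart. Of those 68, 30 had an interval above 1 and 20 one below 1, against 35.0% and 39.0% of the mRNA-typed genes.

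The library labelled Ad-KLF14 had Klf14 at 13164 FPKM, against 0.298 FPKM in the Ad-GFP library. The totals recovered were 11151711 reads (Ad-KLF14) and 11311344 reads (Ad-GFP). The 8 hepatocyte markers summed to 4890.1 FPKM with Ad-KLF14 and 5862 FPKM with Ad-GFP, mostly Alb. Without Alb the sums were 718 FPKM with Ad-KLF14 and 747 FPKM with Ad-GFP, and Hnf4a, Tat and Apob were higher with Ad-KLF14. Summed markers of 2 other cell types were not near 0 and differed between the libraries. The 6 macrophage markers found summed to 188 FPKM with Ad-KLF14 and 119.9 FPKM with Ad-GFP. Without Cd68 the order turned, at 27.8 FPKM with Ad-KLF14 and 48.7 FPKM with Ad-GFP, mostly Mpeg1. The 5 cholangiocyte markers summed to 44.2 FPKM with Ad-KLF14 and 113 FPKM with Ad-GFP, mostly Cldn4, with Krt7 at 0 in both. Without Cldn4 the sums were 3.46 FPKM with Ad-KLF14 and 6.26 FPKM with Ad-GFP. Endothelial markers reached at most 3.87 FPKM, and stellate cell, lymphocyte and erythroid markers at most 1.65 FPKM. The lymphocyte markers Cd3e and Nkg7 were at 0 in both. The design text also names retina, whose 6 markers summed to 5.48 FPKM with Ad-KLF14 and 1.70 FPKM with Ad-GFP, with Crx and Rcvrn at 0 in both. Without Gnat1 these were 0.731 FPKM with Ad-KLF14 and 0.821 FPKM with Ad-GFP. Splicing genes are used by every cell type, so the part of these other cells in the differences below was not tested. In RNA of a whole culture, fewer cells of a type and less RNA per cell cannot be told apart.

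Of the 69 splicing genes, 68 averaged 1 FPKM or more across the libraries and were counted. The exception was Srsf13b, at 0.397 FPKM with Ad-KLF14 and 0.12 FPKM with Ad-GFP. The lowest counted gene was Prpf40b, with a mean of 4.42 FPKM. The counted genes were well expressed, with 63 of 68 averaging 10 FPKM or more. Hnrnpab had the highest mean, 339 FPKM. In the plot of levels, the libraries lie close together for most genes.

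**Figure D1:**
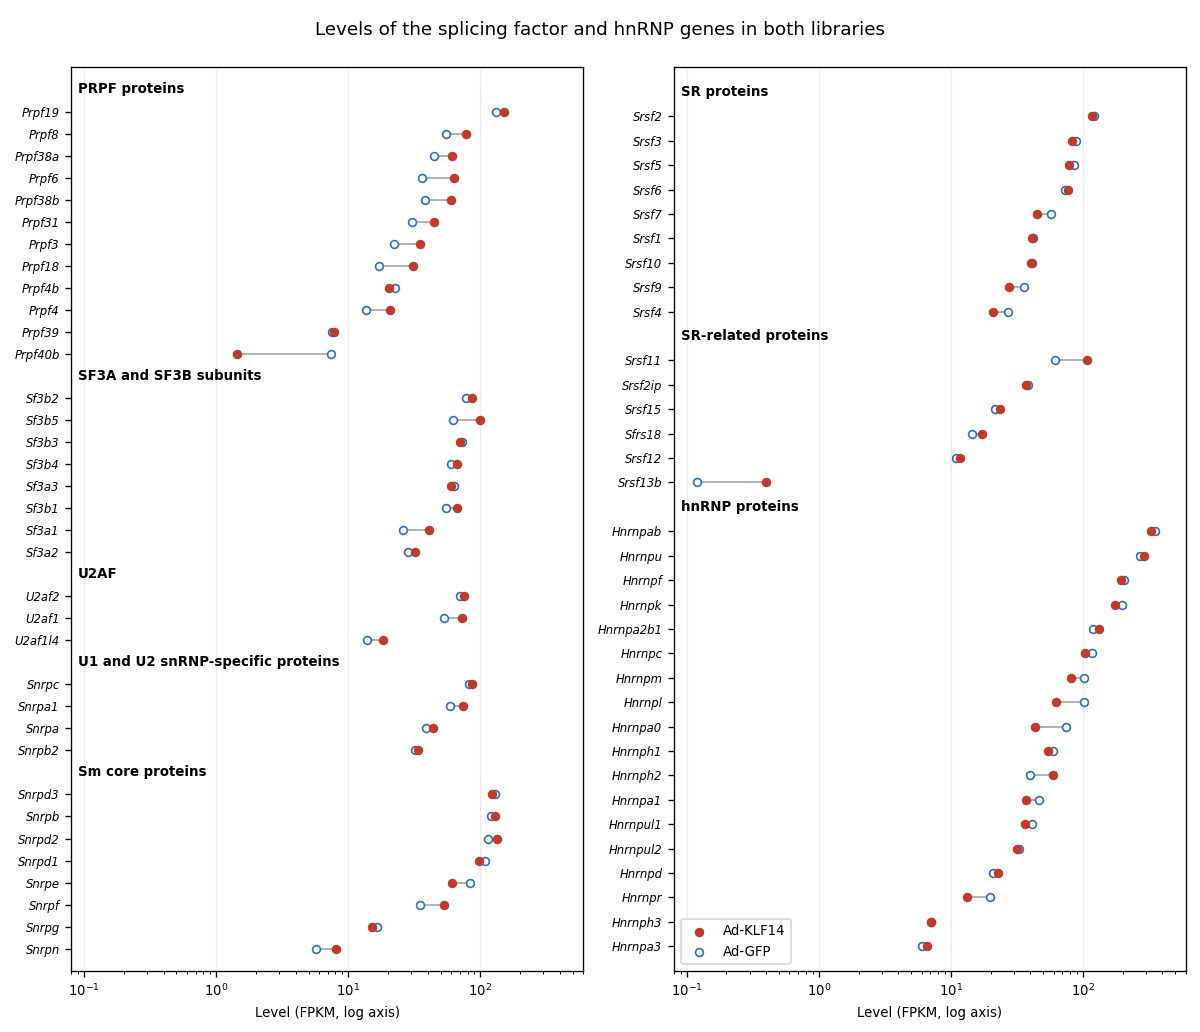
Level of 68 of the 69 genes in FPKM on a log axis, in groups by role and sorted by mean level within a group. Filled red points are the Ad-KLF14 library, open blue points the Ad-GFP library, and Prpf40b at 1.45 (Ad-KLF14) against 7.39 FPKM (Ad-GFP) has the widest gap among the counted genes shown.

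More of the splicing genes than of all mRNA-typed genes were within 1.5-fold, and 62 of 68 had a mean above the median level of those genes. Their median difference was 0.08 on log2(FPKM + 1), and 57 of 68 were within 1.5-fold. The median over 11258 mRNA-typed genes that passed the same filter was -0.03, and 61.8% of those were within 1.5-fold. None of the 68 was at least 2-fold higher with Ad-KLF14, where 6.42% of the mRNA-typed genes were. Prpf40b alone was at least 2-fold lower, where 9.28% were. At 1.5-fold, 8 of 68 (11.8%) were higher, against 16.9% of the mRNA-typed genes. A further 3 of 68 (4.41%) were lower, against 21.4%. With all gene types as the background, the shares were 6.37% and 8.99% at 2-fold, 16.7% and 20.9% at 1.5-fold, and 48.3% above 0. The FPKM of the counted genes summed to 4647 with Ad-KLF14 and 4439.9 with Ad-GFP.

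The roles differed in where their members lay. PRPF genes had the highest group median, 0.53, with 11 of 13 members above 0. All 3 U2AF genes (median 0.37), all 4 U1 and U2 snRNP genes (median 0.12) and 6 of 8 SF3A and SF3B genes (median 0.17) were above 0. Only 1 of the 3 U2AF genes and 1 of the 4 U1 and U2 genes had a counting interval above 1. The U2AF median is the value of U2af1l4, from at least 22 reads with Ad-KLF14 and 17 with Ad-GFP. Sm core genes were even, with 4 of 8 above 0. SR genes lay mostly just below 0, with 1 of 9 above it, and hnRNP genes likewise, with 6 of 18 above it. Of the 5 counted SR-related genes, grouped apart from the SR genes, 4 were above 0 (median 0.12). Among all mRNA-typed genes 48.1% were above 0. The roles were sorted after earlier results of these libraries were known, so these counts describe the members and are no test.

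**Figure D2:**
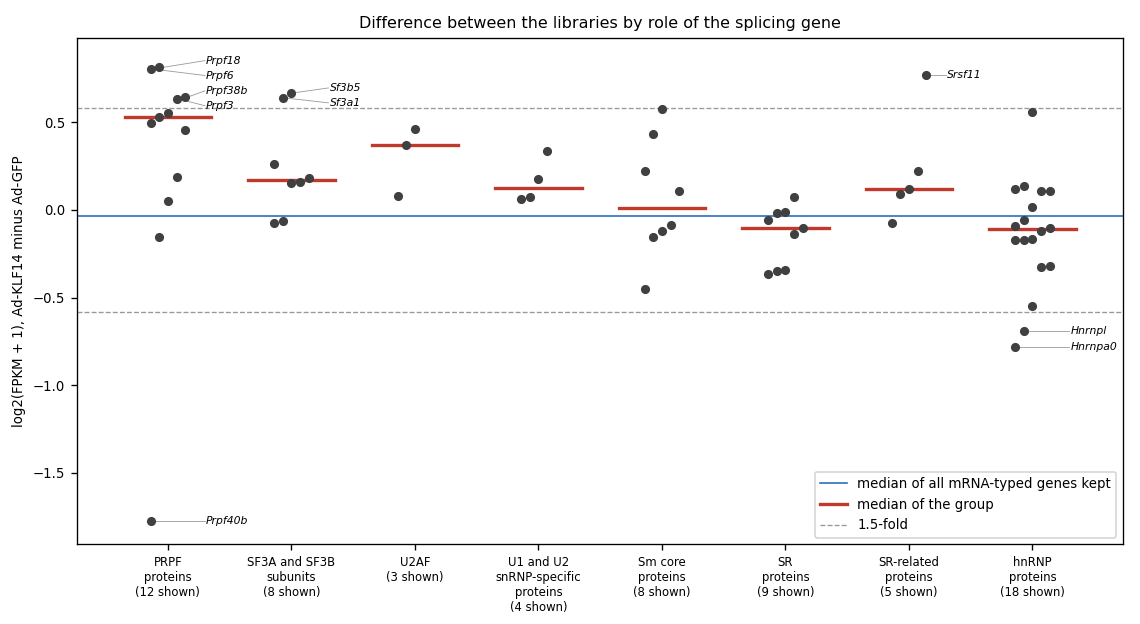
Difference between the libraries on log2(FPKM + 1), Ad-KLF14 less Ad-GFP, for 67 of the 68 genes counted, by role. Red bars are medians over all counted genes of a group, the blue line is the median of all 11258 mRNA-typed genes counted (-0.03), dashed lines mark 1.5-fold, and the PRPF median of 0.53 stands above the other groups.

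Promoter windows of 4 members are shown because they have, among genes with a window at hand, the largest difference of their role in its direction: Prpf6 and Sf3a1, higher with Ad-KLF14, and Prpf40b and Hnrnpa0, lower with it. They come from RefSeq (build GRCm38.p6), each of 300 bases around the annotated start on the strand of the gene. Prpf40b has 2 windows in the table, of which the most upstream is shown. Capitals mark the GC box GGGCGG and the CACCC box CACCC, the kinds of sites that zinc finger factors of the KLF and SP family bind, on both strands, with overlapping matches counted.
Prpf6, chr2:181601069-181601368, + strand: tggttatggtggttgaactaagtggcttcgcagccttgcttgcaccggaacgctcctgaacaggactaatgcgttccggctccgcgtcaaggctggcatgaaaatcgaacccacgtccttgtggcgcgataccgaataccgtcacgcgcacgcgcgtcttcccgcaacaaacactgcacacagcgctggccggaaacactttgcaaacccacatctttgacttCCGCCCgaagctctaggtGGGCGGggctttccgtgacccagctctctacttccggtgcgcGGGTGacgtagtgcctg
Sf3a1, chr11:4160104-4160403, + strand: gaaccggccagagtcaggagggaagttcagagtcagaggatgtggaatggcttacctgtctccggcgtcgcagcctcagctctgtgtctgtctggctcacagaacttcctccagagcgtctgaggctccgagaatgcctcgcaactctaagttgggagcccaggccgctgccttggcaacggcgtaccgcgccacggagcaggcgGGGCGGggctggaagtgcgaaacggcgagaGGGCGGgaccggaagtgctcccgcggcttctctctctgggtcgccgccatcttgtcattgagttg
Prpf40b, chr15:99294991-99295290, + strand: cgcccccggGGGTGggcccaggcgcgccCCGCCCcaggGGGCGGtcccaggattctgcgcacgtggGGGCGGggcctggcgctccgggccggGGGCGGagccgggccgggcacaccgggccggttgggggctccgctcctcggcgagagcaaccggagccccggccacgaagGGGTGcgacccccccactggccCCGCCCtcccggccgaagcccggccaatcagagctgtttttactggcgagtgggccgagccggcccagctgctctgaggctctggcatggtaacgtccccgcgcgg
Hnrnpa0, chr13:58128507-58128806, - strand: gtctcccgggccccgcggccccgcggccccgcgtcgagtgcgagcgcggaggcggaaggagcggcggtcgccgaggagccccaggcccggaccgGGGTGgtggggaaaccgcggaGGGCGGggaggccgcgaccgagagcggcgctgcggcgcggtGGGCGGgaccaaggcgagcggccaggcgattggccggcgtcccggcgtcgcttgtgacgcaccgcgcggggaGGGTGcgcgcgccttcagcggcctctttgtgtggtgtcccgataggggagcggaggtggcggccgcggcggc

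The Prpf40b window held 5 GC boxes and 2 CACCC boxes. The other windows held 2 GC boxes each, with 1 CACCC box in Prpf6, 2 in Hnrnpa0 and 0 in Sf3a1. Windows were at hand for 57 of the 68 genes. Of their 78 windows 62.8% held a GC box and 51.3% a CACCC box, against 35.7% and 57.5% of all 32851 windows in the table. Counted per gene, 66.7% of the members had a GC box in a window and 52.6% a CACCC box, against 70.0% and 66.3% of the counted mRNA-typed genes with a window. Only 7902 of those 11258 genes have one, so the comparison per gene is incomplete. The higher share of GC boxes per window was thus not seen against counted genes. A GC box stood in a window of 6 of 11 PRPF genes, 8 of 9 SR genes and 13 of 17 hnRNP genes. A CACCC box stood in 6 of 11 PRPF genes, 5 of 9 SR genes and 8 of 17 hnRNP genes. These are matches of letters and not binding sites.

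PRPF proteins are named for pre-mRNA processing factors first found in yeast mutants. In mammals Prpf3, Prpf4 and Prpf31 encode proteins of the U4/U6 particle, Prpf6 a protein that joins it to U5, and Prpf8 the large U5 protein at the catalytic centre. All 5 were higher with Ad-KLF14. Prpf6 was at 63.7 FPKM with Ad-KLF14 and 36.1 FPKM with Ad-GFP, 1.77-fold higher (counting interval 1.65 to 1.895). Prpf3 was at 35.1 (Ad-KLF14) against 22.3 FPKM (Ad-GFP), 1.57-fold higher (interval 1.43 to 1.73). Prpf4 stood at 20.6 (Ad-KLF14) against 13.7 FPKM (Ad-GFP), a ratio of 1.51. The same direction was seen for Prpf31, with 44.5 (Ad-KLF14) against 30.6 FPKM (Ad-GFP), 1.46-fold higher, and for Prpf8, with 77.3 (Ad-KLF14) against 54.6 FPKM (Ad-GFP), 1.42-fold higher (interval 1.36 to 1.47). The 5 genes had a median difference of 0.56 and lay between 0.49 and 0.80, so they were close to each other as well as apart from 0. Prpf4 was under 1.5-fold once 1 FPKM was added.

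PRPF genes outside the tri-snRNP went further in both directions. Prpf18, which acts in the second step of splicing, was at 31.0 (Ad-KLF14) against 17.2 FPKM (Ad-GFP), 1.80-fold higher (interval 1.64 to 1.99), the highest ratio among the counted members. Prpf38b was at 60.4 (Ad-KLF14) against 38.2 FPKM (Ad-GFP), 1.58-fold higher. Its relative Prpf38a, needed to activate the assembled spliceosome, was at 61.0 (Ad-KLF14) against 44.3 FPKM (Ad-GFP), 1.38-fold higher. Prpf19, the ubiquitin ligase that gives the Prp19 complex its name, had the highest PRPF level, 151 (Ad-KLF14) against 132 FPKM (Ad-GFP), with a ratio of 1.14. Prpf39, which takes part in the U1 particle in yeast, stood at 7.80 (Ad-KLF14) against 7.50 FPKM (Ad-GFP), and its interval of 0.80 to 1.36 holds 1. Prpf4b, a protein kinase of the spliceosome, was at 20.3 (Ad-KLF14) against 22.7 FPKM (Ad-GFP), at a ratio of 0.896.

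Prpf40b, which encodes a relative of a yeast U1 protein, stood apart from the other PRPF genes. It had 1.45 (Ad-KLF14) against 7.39 FPKM (Ad-GFP), from at least 17 reads with Ad-KLF14 and 88 with Ad-GFP, and was 5.10-fold lower (interval 3.01 to 9.15). Over all 13 PRPF genes, 5 passed 1.5-fold upward and 1, Prpf40b, downward (38.5% and 7.69%), where 16.9% and 21.4% of the mRNA-typed genes did. The read numbers of Prpf40b are lower limits, so its interval may be too wide. With 5 FPKM added in place of 1, its difference was -0.94, under 2-fold.

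**Figure D3:**
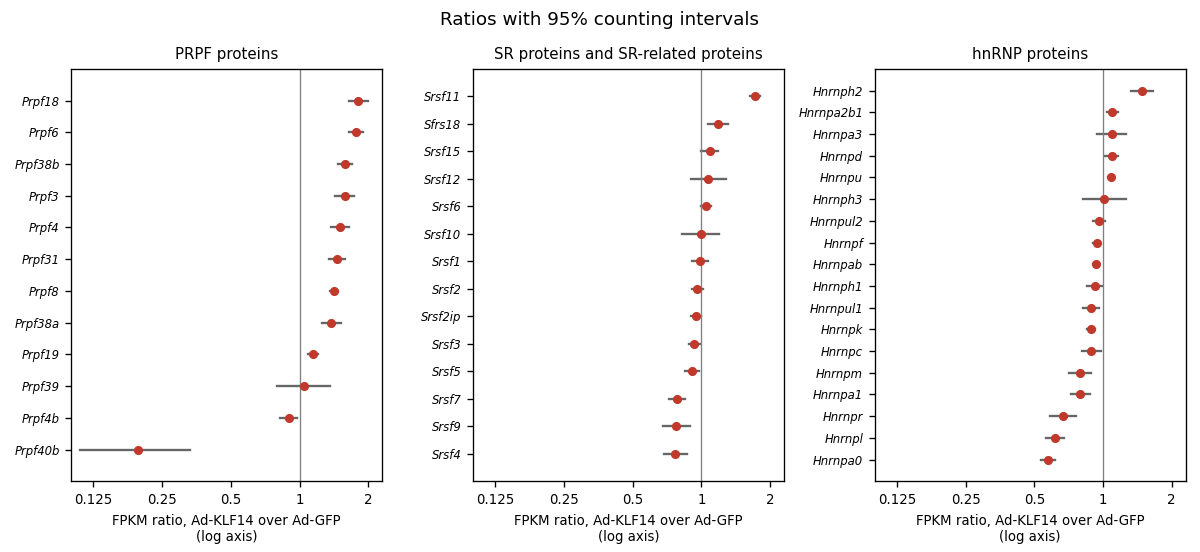
FPKM ratios of Ad-KLF14 over Ad-GFP on a log axis with 95% counting intervals, for 12 of the 13 PRPF genes, the 14 counted SR and SR-related genes and the 18 hnRNP genes. Of the PRPF intervals shown 9 lie above 1 and 2 below it, while 11 of 18 hnRNP intervals lie below 1.

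SF3A and SF3B are the protein complexes of the U2 particle that hold the branch point. In this group 2 of 8 genes (25%) passed 1.5-fold upward and none downward, against 16.9% and 21.4% of the mRNA-typed genes. The median difference of the group was 0.17. Sf3a1 was at 40.97 (Ad-KLF14) against 26.0 FPKM (Ad-GFP), 1.58-fold higher (interval 1.48 to 1.69). Sf3b5, a small SF3B subunit, was at 100.1 (Ad-KLF14) against 62.5 FPKM (Ad-GFP), 1.60-fold higher (interval 1.43 to 1.79). The partners of these 2 genes lay closer to 1. Sf3b1, which contacts the branch point region, was at 66.2 (Ad-KLF14) against 55.0 FPKM (Ad-GFP), at a ratio of 1.21, and Sf3b2, the highest of the group in mean level, at 86.8 (Ad-KLF14) against 77.5 FPKM (Ad-GFP), at a ratio of 1.12. Sf3a2 and Sf3b4 had ratios of 1.14 and 1.11. Sf3a3 and Sf3b3 had ratios of 0.949 and 0.958, with intervals that hold 1, so the subunits had unequal ratios in these libraries.

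U2AF marks the end of the intron, with U2af2 on the pyrimidine tract and U2af1 on the final AG. U2af1 had 73.1 (Ad-KLF14) against 52.7 FPKM (Ad-GFP) and thus a ratio of 1.39 (interval 1.24 to 1.55), while U2af2 was at 74.8 (Ad-KLF14) against 70.6 FPKM (Ad-GFP) with a ratio of 1.06, whose interval of 0.991 to 1.13 holds 1. U2af1l4, a relative of U2af1, stood at 18.3 (Ad-KLF14) against 13.9 FPKM (Ad-GFP), from at least 22 reads with Ad-KLF14 and 17 with Ad-GFP, and its interval of 0.67 to 2.63 holds 1 but may be too wide, since these reads are lower limits. Among proteins of a single particle, the U2 gene Snrpa1 was at 74.2 (Ad-KLF14) against 58.5 FPKM (Ad-GFP), at a ratio of 1.27 (interval 1.16 to 1.39). The other U2 gene, Snrpb2, and the U1 genes Snrpa and Snrpc had ratios from 1.04 to 1.13 with intervals that hold 1. Snrpc had the highest mean of these 4, at 86.3 (Ad-KLF14) against 82.6 FPKM (Ad-GFP).

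Sm proteins form the ring around the RNA of most spliceosomal particles. None of the 8 was at least 1.5-fold apart, where 61.8% of the mRNA-typed genes were within 1.5-fold. The median difference of the 8 was 0.01. Snrpf came nearest, with 52.7 (Ad-KLF14) against 35.0 FPKM (Ad-GFP). Its ratio was 1.504 (interval 1.30 to 1.74), a difference of 0.58. Snrpe went the other way, at 61.1 (Ad-KLF14) against 83.7 FPKM (Ad-GFP), at a ratio of 0.729 (interval 0.63 to 0.84). Snrpb and Snrpd3, with the highest mean levels, stood at 129.9 (Ad-KLF14) against 120.3 FPKM (Ad-GFP) and 123 (Ad-KLF14) against 130.3 FPKM (Ad-GFP). Snrpd2 was at 134 (Ad-KLF14) against 114 FPKM (Ad-GFP), at a ratio of 1.17. The ratios of Snrpd1 and Snrpg, 0.898 and 0.917, had intervals that hold 1 but may be too wide. Snrpn, a close relative of Snrpb that is expressed from the paternal chromosome, was at 8.08 (Ad-KLF14) against 5.71 FPKM (Ad-GFP), 5.85% of the summed level of both with Ad-KLF14 and 4.53% with Ad-GFP. Snrpe, Snrpg, Hnrnpa1 and Hnrnpa3 have processed pseudogenes from which their reads can be hard to tell, so their values are uncertain.

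SR proteins recruit the splicing machinery to exons. All 9 in this group were within 1.5-fold, as were 61.8% of the mRNA-typed genes, while Srsf11, placed in the SR-related group, was not. Of the 9, 8 were below 0, with a median difference of -0.10. The 3 lowest were Srsf4 at 20.9 (Ad-KLF14) against 27.1 FPKM (Ad-GFP), at a ratio of 0.770, Srsf9 at 27.7 (Ad-KLF14) against 35.6 FPKM (Ad-GFP), at a ratio of 0.778, and Srsf7 at 44.7 (Ad-KLF14) against 56.9 FPKM (Ad-GFP), at a ratio of 0.785. Their intervals lie below 1 and overlap one another. Srsf2, which had the highest mean of the group, was at 117 (Ad-KLF14) against 122 FPKM (Ad-GFP), and Srsf1, the classical exon enhancer factor, at 41.5 (Ad-KLF14) against 42.0 FPKM (Ad-GFP). The ratios of these 2 were 0.959 and 0.989, with intervals that hold 1. Srsf3 and Srsf5 lay between them and the lowest 3, with ratios of 0.931 and 0.909. Srsf10 had a ratio of 0.992 and Srsf6 one of 1.05.

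The SR-related group holds the other rows with an SR symbol, kept apart from the 9 SR genes by symbol alone. Srsf11 among them still bears an SR symbol in RefSeq, so the counts of the 9 depend on this split. Srsf11 was the one apart, at 107 (Ad-KLF14) against 62.0 FPKM (Ad-GFP), 1.72-fold higher (interval 1.63 to 1.81). Sfrs18, now called Pnisr, was at 17.2 (Ad-KLF14) against 14.6 FPKM (Ad-GFP), at a ratio of 1.18. The ratios of Srsf15 and Srsf2ip, now Scaf4 and Scaf11, were 1.09 and 0.950. The symbol Srsf12 stands in RefSeq both for a gene of that name and as an old name of Srek1, and Srsf13b is an old name of the present Srsf12. The row Srsf12 was at 11.8 (Ad-KLF14) against 11.01 FPKM (Ad-GFP) and the row Srsf13b below 1 FPKM, and which present gene each row stands for is uncertain.

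The hnRNP genes hold the most abundant members of the set. Their summed level was 1682 FPKM with Ad-KLF14 and 1818 FPKM with Ad-GFP, and their median difference was -0.11. None of 18 passed 1.5-fold upward and 2 (11.1%) did so downward, against 16.9% and 21.4% of the mRNA-typed genes. Hnrnpa0, of the A/B family, had 43.1 (Ad-KLF14) against 74.97 FPKM (Ad-GFP) and was 1.74-fold lower (interval 1.62 to 1.86). Hnrnpl, which binds CA-rich RNA, had 62.5 (Ad-KLF14) against 101.5 FPKM (Ad-GFP) and was 1.63-fold lower (interval 1.48 to 1.78). Hnrnpr was at 13.2 (Ad-KLF14) against 19.8 FPKM (Ad-GFP), lower by a ratio whose interval is 1.32 to 1.71, but under the threshold once 1 FPKM was added. The next were Hnrnpm, at 81.7 (Ad-KLF14) against 103 FPKM (Ad-GFP), and Hnrnpa1, at 36.9 (Ad-KLF14) against 46.4 FPKM (Ad-GFP), each with a ratio of 0.796.

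The most abundant hnRNP genes stayed near 1. Hnrnpab was at 328 (Ad-KLF14) against 351 FPKM (Ad-GFP), a ratio of 0.932. Hnrnpu, the scaffold attachment factor of chromatin, was at 293 (Ad-KLF14) against 272 FPKM (Ad-GFP), a ratio of 1.08. Hnrnpf, which binds G-rich runs, was at 194 (Ad-KLF14) against 207 FPKM (Ad-GFP), at a ratio of 0.937, and Hnrnpk, a binder of C-rich runs, at 176 (Ad-KLF14) against 199 FPKM (Ad-GFP), at a ratio of 0.887. Hnrnpa2b1 and Hnrnpc, which package nascent transcripts, were at 132 (Ad-KLF14) against 120.1 FPKM (Ad-GFP) and 104 (Ad-KLF14) against 117 FPKM (Ad-GFP). Hnrnpul1, Hnrnpul2, Hnrnph1, Hnrnpd and Hnrnpa3 also had ratios between 0.888 and 1.09, and their levels ranged from 6.08 to 59.6 FPKM.

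In the Hnrnph family, whose proteins bind runs of G, the balance of the members differed. Hnrnph2, on the X chromosome in mammals, had 59.4 (Ad-KLF14) against 40.0 FPKM (Ad-GFP), with a ratio of 1.48 (interval 1.33 to 1.66), the highest of the hnRNP genes. Hnrnph1 was at 54.8 (Ad-KLF14) against 59.6 FPKM (Ad-GFP), at a ratio of 0.92, and Hnrnph3 at 7.13 (Ad-KLF14) against 7.03 FPKM (Ad-GFP) from equal reads in both libraries. Hnrnph2 made up 48.9% of the summed level of the 3 genes with Ad-KLF14 and 37.5% with Ad-GFP. With Ad-KLF14 it was above Hnrnph1, and with Ad-GFP below it. This order and the shares depend on the implied lengths, 1182 bases for Hnrnph2 and 2226 for Hnrnph1. That of Hnrnph2 was not within 1% of a reference transcript. In recovered reads Hnrnph2 was below Hnrnph1 in both libraries, at 783 against 1361 with Ad-KLF14 and 535 against 1500 with Ad-GFP.

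Other genes of RNA processing were described from 7 lists, without the members. Their counts past 1.5-fold are read against the 16.9% of mRNA-typed genes upward and 21.4% downward. The list of tri-snRNP, Prp19 complex and helicase genes lay on the side of the PRPF genes. Its median difference was 0.42 over 35 genes, and 27 were above 0. Past 1.5-fold there were 9 upward and 1 downward. Crnkl1 and Xab2, both of the Prp19-related machinery, were at 38.4 (Ad-KLF14) against 15.3 FPKM (Ad-GFP), 2.50-fold higher (interval 2.26 to 2.77) and 60.7 (Ad-KLF14) against 26.1 FPKM (Ad-GFP), 2.32-fold higher. The GTPase gene Eftud2 was at 81.1 (Ad-KLF14) against 47.7 FPKM (Ad-GFP), 1.70-fold higher. The helicase gene Snrnp200 was at 48.8 (Ad-KLF14) against 34.1 FPKM (Ad-GFP), 1.43-fold higher, and both were named after their values were seen. In the same list 8 of 35 genes were below 0. They include Txnl4a and Ddx23, with ratios of 0.822 and 0.894 and intervals below 1. Dhx35, a helicase gene, was the 1 gene past 1.5-fold downward, at 3.14 (Ad-KLF14) against 7.38 FPKM (Ad-GFP), 2.35-fold lower. Genes of cleavage and polyadenylation had a median of 0.22 over 20 genes, 4 past 1.5-fold upward and 1 downward, and Clp1 (1.92-fold), Cstf1 (1.72-fold) and Cpsf4 (1.70-fold) had the largest differences on log2(FPKM + 1).

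The remaining lists had medians between -0.05 and 0.05. In the kinases and phosphatases of SR proteins 2 of 11 passed 1.5-fold upward and 2 downward (18.2% each), near the shares of all mRNA-typed genes. Clk1, a nuclear kinase of SR proteins, was at 49.3 (Ad-KLF14) against 24.4 FPKM (Ad-GFP), 2.02-fold higher (interval 1.80 to 2.27). Srpk1, their cytoplasmic kinase, had 33.8 (Ad-KLF14) against 59.9 FPKM (Ad-GFP), 1.78-fold lower (interval 1.58 to 1.99), and the phosphatase gene Ppp1ca was 2.07-fold lower. Among counted relatives of Clk1 and Srpk1, Clk4 was 1.77-fold higher, while Clk2, Clk3 and Srpk2 had ratios of 0.847, 0.963 and 0.804. The 9 genes of the SR group were all within 1.5-fold, while Srsf11 of the SR-related group was not. Early spliceosome factors had 2 of 26 past 1.5-fold upward and 2 downward, with the minor spliceosome gene Snrnp25 at 6.78 (Ad-KLF14) against 2.87 FPKM (Ad-GFP), 2.37-fold higher, Zrsr2 2.17-fold lower and Rbm17 1.68-fold lower.

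The list of LSm and SMN genes, whose products build the U6 ring and load Sm proteins onto RNA, had 4 of 22 past 1.5-fold upward and 4 downward (18.2% each), also near those shares. Lsm2, Gemin7 and Gemin4 were 2.32-fold, 2.23-fold and 2.16-fold lower, while Prmt5 and Ddx20, named after their values were seen, were 1.96-fold and 1.86-fold higher. Regulators of alternative splicing had 2 of 34 past 1.5-fold upward and 5 downward, led by Cirbp, a cold-induced protein, at 3.78 (Ad-KLF14) against 9.92 FPKM (Ad-GFP), 2.62-fold lower. Rod1, a relative of the repressor Ptbp1, and Pcbp2, a binder of C-rich RNA, were at 19.8 (Ad-KLF14) against 39.6 FPKM (Ad-GFP) and 61.9 (Ad-KLF14) against 122 FPKM (Ad-GFP). Exon junction and nonsense-mediated decay genes, through which SR and hnRNP transcripts with poison exons are removed, were close together, with 16 of 17 within 1.5-fold. Smg6 was at 4.98 (Ad-KLF14) against 9.77 FPKM (Ad-GFP), 1.96-fold lower, Upf2 had a ratio of 0.657 and Sap18 one of 1.49.

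**Figure D4:**
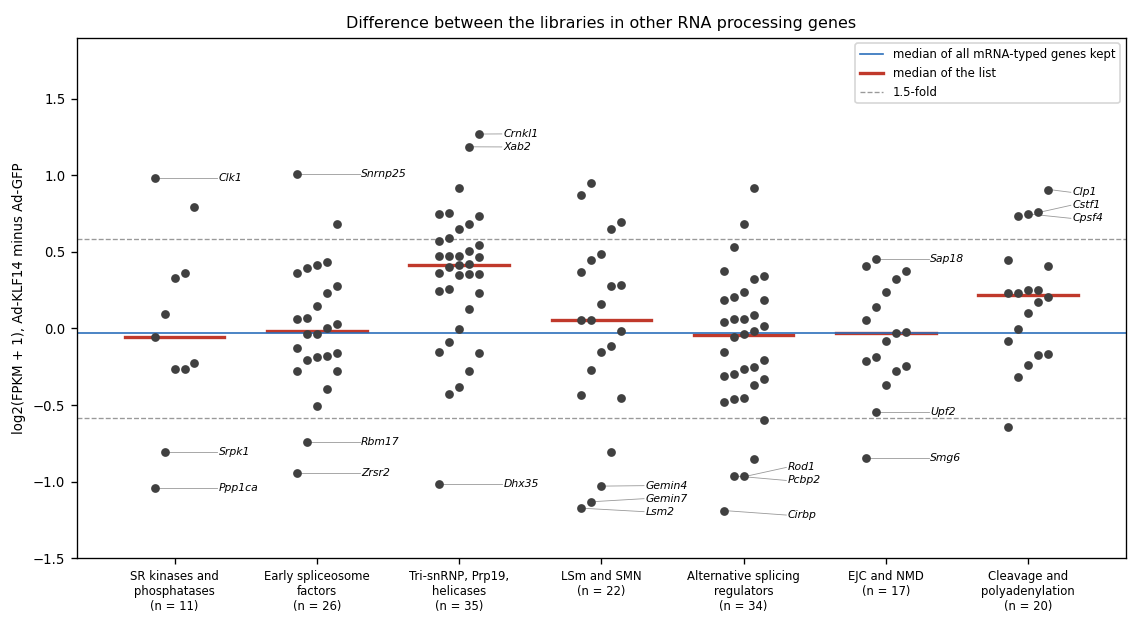
Difference between the libraries on log2(FPKM + 1), Ad-KLF14 less Ad-GFP, for genes of 7 other RNA processing lists, members left out. Red bars are list medians and the blue line is the median of all mRNA-typed genes counted, and the list of tri-snRNP, Prp19 complex and helicase genes has a median of 0.42.

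Gene length and level were set beside the differences. Among mRNA-typed genes the median difference was -0.07 for longest coding transcripts under 2000 bases, -0.05 for 2000 to 4000 bases and -0.02 for 4000 bases and more. The PRPF genes had medians of 0.64 (6 genes) and 0.34 (6 genes) in the last 2 classes, and the 1 in the first, Prpf38a, had 0.45. By mean level, the mRNA-typed genes had medians from -0.09 to 0.09 over 4 classes. The 7 PRPF genes between 10 and 50 FPKM had a median of 0.63, where the mRNA-typed genes of that level had 0.00, and the 6 hnRNP genes there had -0.11. The 2 PRPF genes below 10 FPKM, Prpf39 and Prpf40b, had a median of -0.86. Between 50 and 100 FPKM, 3 PRPF genes had a median of 0.49 and 4 hnRNP genes one of -0.51, where the mRNA-typed genes had 0.09. At 100 FPKM and more, the 6 hnRNP genes had -0.10 and the mRNA-typed genes -0.09. Below 10 FPKM, the 2 hnRNP genes had 0.06 and the mRNA-typed genes -0.09. By length, the hnRNP genes had medians of -0.09 (2 genes), -0.17 (11 genes) and 0.11 (5 genes) from the shortest class to the longest.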

How the data were processed

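RNA sequencing of primary hepatocytes was compared between 1 Ad-KLF14 and 1 Ad-GFP library. Per the labels' protocols, Trizol RNA was made into Illumina TruSeq libraries. Bowtie 0.12.2 is listed, with mm8 as the build, per the submitters' processing notes. The gene models and the counting rule are not given in the sources used here. The authors deposited FPKM values per gene. The series' design text speaks of retina and triplicates, and how far it applies to these libraries is unclear.

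With Python 3.11.15, numpy 2.4.6 and scipy 1.17.1, reads were recovered from ratios of the FPKM values (relative tolerance 1e-11). Totals were fixed by whole gene lengths, which 99.94% of 16944 genes gave. Reads were divided in 1022 genes, 5 of them members, whose implied length exceeded the longest coding transcript of GENCODE M21 by over 25%. They are lower limits where both numbers share a factor. Implied lengths of 26 of 65 members were within 1% of a reference transcript. Recovery was tested on simulated data built from the lengths recovered here, which cannot show whether those lengths are right. Intervals are exact Clopper-Pearson intervals, and PCR copies are not told apart.

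Counted genes had a mean of at least 1 FPKM. The rule names members at least 1.5-fold apart, per role the highest and the most different member, and up to 3 genes per other list; further members were named to describe the set, and 1 counted member is not reported here on its own. Members, lists and thresholds were chosen with earlier results of these data known. Alternatives were other pseudocounts, filters and scalings and a running median along expression. FPKM allow no count test, and 1 library a group allows no test at all.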

Additional observations from a re-analysis of the deposited data

How the results depend on the processing

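No paired analysis was possible because each group holds 1 library, and for the same reason no library could be left out. Over 8 alternatives, the count of members at least 2-fold higher was 0 in each. The 1 member at least 2-fold lower, Prpf40b, left the count (0 members) with a pseudocount of 5 FPKM and with a filter of a mean of at least 5 FPKM. Members at least 1.5-fold higher ranged from 6 to 11 and those lower from 2 to 3. The share of mRNA-typed genes past 1.5-fold moved with the setting as well. With 5 FPKM added, 6 of 68 members were higher and 3 lower, against 10.6% and 13.1% of the mRNA-typed genes. When a trimmed mean set the scale, 11 of 68 were higher and 3 lower, against 18.3% and 20.1%. The 2 lower members, of 67, came with the filter at 5 FPKM, against 20.4%. The median difference ranged from 0.06 to 0.12 for all members, from 0.47 to 0.57 for the PRPF genes, from -0.16 to -0.06 for the SR genes and from -0.11 to -0.07 for the hnRNP genes; the alternatives for the 3 groups were chosen after seeing the data. Scalings moved the median of all mRNA-typed genes by at most 0.04. Of 175 values of 22 named members 174 had the direction reported. The exception was Hnrnpab, at 0.05 with a running median along expression removed. Snrpf passed 1.5-fold in 4 alternatives, Prpf3 and Sf3a1 came under it with a pseudocount of 5 FPKM (0.55 and 0.57), and Prpf38b did so with the running median removed (0.54). With all gene types as background, 6.37% passed 2-fold upward and 8.99% downward. Recovered reads can be lower limits, so how far depth limits Prpf40b, U2af1l4, Snrpg, Snrpd1 and other members is unknown.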

Other observations

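Rows beside the splicing genes held the following values. Of 19 rows typed as snRNA 12 were at 0 in both libraries and 3 had a mean of at least 1 FPKM. The highest was Rn7sk, the 7SK RNA, which binds hnRNP proteins and holds back the elongation factor P-TEFb, at 189 (Ad-KLF14) against 439 FPKM (Ad-GFP), 2.32-fold lower. Hnrpdl and Hnrpll, hnRNP genes under older symbols that the symbol rule does not take in, were at 58.5 (Ad-KLF14) against 42.5 FPKM (Ad-GFP) and 38.3 (Ad-KLF14) against 35.2 FPKM (Ad-GFP). The pseudogene row Hnrnpa1l2-ps was listed at 0 (Ad-KLF14) against 0.118 FPKM (Ad-GFP).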
